A study of Zea mays with 14 samples.

Results

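The 200 genes described here had mRNA listed in roots of maize seedlings and none listed in shoots, and had the highest root mRNA coverage of all such genes. They were found by joining the gene tables of both organs on the number in the gene identifier. Of 186790 gene models, 7722 (4.13%) had an mRNA depth above 0 in root and a depth of 0 in shoot. The 200 of highest root depth were kept, with ties in the order of gene number. The depth is the summed base coverage of a gene model, in which 35 bases are worth 1 read, and it is given below in reads. The genes were thus chosen by the mRNA depth of both organs, and these values are a description only. The chromatin marks had no part in the choice.

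Plants were of the inbred line B73, grown without a further treatment named in the labels and taken at 14 days, when shoots and roots were separated. Each organ had a single library for H3K4me3, H3K9ac, H3K27me3 and H3K36me3 (chromatin immunoprecipitation and sequencing), for methylated DNA released by the enzyme McrBC, and for poly(A) mRNA. Tissue of 10 seedlings was pooled for DNA methylation and for chromatin, and 3 immunoprecipitations were combined per library, per the labels' protocols. No difference between organs therefore has a replicate check, and no test was made. Shares carry 95% Wilson intervals that cover counting error only, and they are too narrow where gene models repeat each other. No gene identifier matched the name table used here, so the genes appear by rank and are without names, and the organ labels could not be checked against marker genes. In whole organs, fewer cells of a type and less RNA per cell cannot be told apart.

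H3K4me3 and H3K9ac are laid down around the start of genes that are transcribed or ready to be. H3K36me3 follows elongating RNA polymerase into the gene body, and cytosine methylation in plants is densest on transposons. H3K27me3, the product of Polycomb repressive complex 2, covers many plant genes in the organs that do not use them, and is lost or reduced where such a gene is switched on.

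Root mRNA coverage was concentrated in the first few of these gene models. Zm005093, ranked 1, had 32163 reads over 3615 covered bases, and Zm128736, ranked 2, had 28542 reads over 2246. The gene of rank 3 had 25295 reads over 1944 bases. After these, the values dropped to 12985 reads at rank 4 and 10258 at rank 5, and ranks 6 to 10 lay between 7244 and 5285. The median of the 200 was 934 reads and the lowest value 529. At the limit of the choice the values were nearly continuous, with 534, 532 and 529 reads for the last 3 genes inside it and 529, 527 and 521 for the first 3 outside. Per covered base, the mean root depth of the 200 ranged from 5.19 to 455.41 with a median of 25.1, compared with a median of 3.45 for all 7722 root-only genes.

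The 200 genes held 375990 of the 21406798 root reads summed over gene models, or 1.76% (95% Wilson interval 1.75 to 1.76%). The first gene alone held 0.15% of root mRNA, the first 10 held 0.663%, and the first 50 held 1.16%. The first 10 genes thus accounted for 37.8% of the reads of the 200. Of the mRNA of all root-only genes, the 200 held 41.2%. Even so they were not the most abundant transcripts of the root. Only 18 gene models had more root coverage than rank 1, but 8304 had more than rank 200, and 8105 of those were listed in both organs. The 200 genes of highest coverage with mRNA in shoot only held more of their organ, 4.98% of shoot mRNA. The 200 genes with the highest lower value of both organs held 18.9% of root and 10.4% of shoot mRNA. A read that lies in overlapping gene models counts for each of them, so these are shares of coverage over models. Among the first 10, the models matched below to ranks 1 and 2 overlapped, as did those of ranks 4 and 9 and of ranks 5 and 10. The share of the first 10 can therefore count some reads more than once.

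**Figure D1:**
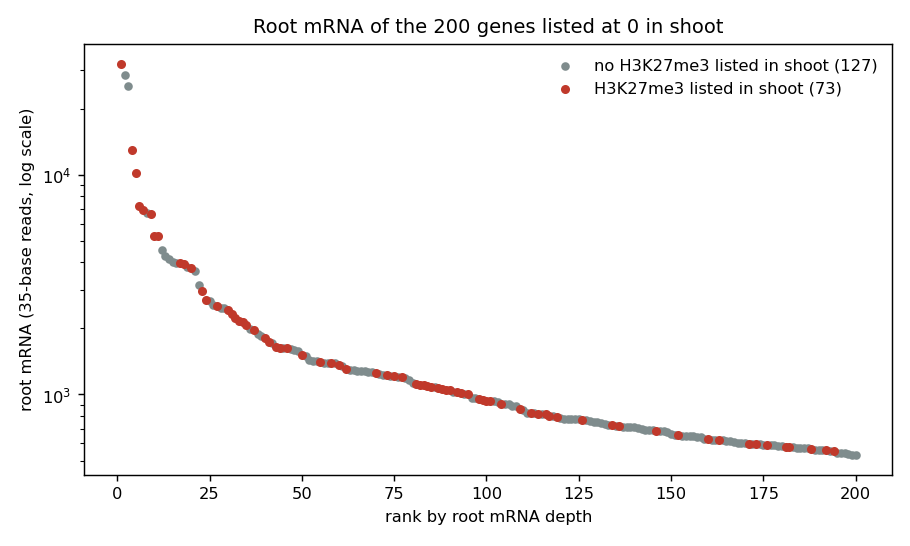
Root mRNA of each of the 200 genes in 35-base reads (log scale) against rank, with genes that carried H3K27me3 in shoot in red (73) and the others in grey (127). Values run from 32163 reads at rank 1 to 529 at rank 200, and red points are denser among the first 100 ranks (50 of 100) than over the whole set.

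A depth of 0 in shoot does not mean silence, because the lowest mean depth listed above 0 was 2.55 in shoot. With each gene set at that limit in shoot, root mean depth was at least 4-fold higher for 177 of the 200, against 6.63% of all root-only genes. It was at least 10-fold higher for 98 and at least 100-fold higher for 6. The bound was 122-fold at rank 1, 174-fold at rank 2 and 179-fold at rank 3, and its lowest value in the set was 2.04. This uses the measure that chose the genes and only shows how far above the limit they lay.

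A further table of typed gene models gave the coverage of both organs summed, and with it, for genes that could be matched, the shoot reads too sparse to be listed. The sum of the organ depths was found in it for all 36465 genes listed in both organs. A gene was given a typed model where the covered length was equal and a single model had a summed coverage that exceeded the root depth by less than the shoot limit allows. This match was devised after the values were seen. It held for 37 of ranks 1 to 50, where the impossible case of a single model with less coverage than the root alone occurred once (1 of 50), and for 10 of the last 50 ranks, where it occurred 6 times. Left-over shoot reads are therefore given for ranks 1 to 50 only. The peaks and the places of models described further on use all 88 matched genes, and are less sure at later ranks. Of these 37 models, 34 were labelled protein coding, 19 had 1 exon, and their spans ran from 342 to 6407 bp. The reads left over for shoot were few, with a median of 11 and a range of 1 to 137. At rank 1 there were 14 such reads (95% Poisson interval 7.65 to 23.5, counting error only) beside 32163 in root. At rank 2 there were 8 (3.45 to 15.8) beside 28542. Of the 32 pairs with more than 3 left-over reads, 26 had at least 100 times as many reads in root, with a median ratio of 438 and a lowest ratio of 13.4. The match admits only models with few left-over reads and with none on bases uncovered in root, so these values describe the 37 genes and do not measure how sparse shoot reads were in the others.

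H3K27me3 in shoot was the listing, of 5 marks in both organs, whose share in the 200 genes stood furthest above that of all gene models in relative terms. It was listed on 73 of them, or 36.5% (30.1 to 43.4%), against 3.55% of all gene models and 12.1% of all root-only genes. Of the next 200 root-only genes 25.0% carried it in shoot (19.5 to 31.4%). Of the top 200 shoot-only genes 17.5% did (12.9 to 23.4%), and of the top 200 of both organs 5.5% (3.10 to 9.58%). In root it was listed on 18 of the 200, or 9.0% (5.77 to 13.8%). The root share was 1.26% in all gene models and 3.96% in all root-only genes. It was 10.5% in the next 200 root-only genes, 11.5% in the top 200 shoot-only genes and 4.5% in the top 200 of both organs. The higher root share than in all gene models was thus not particular to the 200 genes. The mark was in shoot only on 59 genes (2.65% of all gene models), in both organs on 14 (0.898%) and in root only on 4 (0.366%). Of the 73 genes with it in shoot, 14 also had it in root, or 19.2%. This share was 25.3% among all 6622 gene models with shoot H3K27me3. The root library thus listed the mark less often on these genes and on all genes alike.

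Where H3K27me3 was listed in both organs it was shorter in root. All 14 such genes had the longer region in shoot, with medians of 1180 bp in the shoot library and 436 bp in the root library. Among the 1677 gene models with it in both organs, 6.08% had it longer in root. Rank 24, the first gene with H3K27me3 in root, carried 1983 bp in shoot and 427 bp in root, together with H3K4me3 of 1546 and 1592 bp. Over all 73 genes the shoot length ran from 200 to 2916 bp with a median of 975 bp.

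The mark was more common among the genes with most root mRNA. In 4 successive classes of 50 ranks, 27, 23, 12 and 11 genes carried H3K27me3 in shoot, and among the next 200 root-only genes the share was 25.0% (19.5 to 31.4%). The 73 marked genes had a median of 1106 root reads and the other 127 a median of 772. Across the 200 genes Spearman's rho between shoot H3K27me3 depth and root mRNA depth was 0.232, and among the 73 marked genes it was -0.132, so that among marked genes more of the mark did not go with more mRNA. Genes of a set share values, and these are descriptions across genes of the same libraries. Of ranks 1 to 10, the genes of ranks 1, 4, 5, 6, 7, 9 and 10 carried it. Ranks 4 and 9 repeated each other's mark values, as did ranks 5 and 10.

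Most of the shoot H3K27me3 lay on genes that also carried H3K4me3 in shoot. This held for 62 of the 73, or 84.9%, against 69.3% of all gene models with shoot H3K27me3. H3K9ac joined it on 42 of the 73, or 57.5% (50.8% of all). The same 73 genes had H3K4me3 in root in 56 cases (52.7% of all gene models with shoot H3K27me3), H3K9ac in root in 31 (14.5%) and H3K36me3 in root in 5 (7.88%). The share with root H3K9ac was thus 42.5%, above that of all genes with the shoot mark, while that of H3K36me3 was close to it. Root H3K9ac was also on 40.0% of all 200 genes, and on 22.7% of root-only genes with shoot H3K27me3. Peak lists bore on the same regions. For 26 of the 39 genes that had a typed model and shoot H3K27me3, a single peak on their clone had the listed length within 1 bp, which gave 20 distinct peaks. The same match of lengths was rare for other marks, at 4 of 62 genes for H3K4me3 in shoot, 1 of 49 for H3K4me3 in root, 6 of 46 for H3K9ac in shoot, 3 of 31 for H3K9ac in root and 1 of 7 for H3K27me3 in root. Of the 20 peaks, 16 overlapped an H3K4me3 peak of shoot by 1 bp or more, against 33.8% of the 14592 shoot H3K27me3 peaks, and 8 overlapped an H3K9ac peak of shoot (27.2%). In root, 15 overlapped H3K4me3 (25.8%), 8 overlapped H3K9ac (8.09%) and 5 overlapped H3K27me3 (29.3%). For H3K36me3 the counts were 0 in shoot (4.75%) and 1 in root (4.67%). The 20 peaks were kept because they matched a gene, while the 14592 were not limited to genes. These shares therefore compare unlike sets of peaks. Peak lists and gene tables differed in 3 of these overlaps. The peak of rank 95 overlapped a root H3K27me3 peak by 420 bp, that of rank 85 a root H3K36me3 peak by 1512 bp, and that of rank 119 a shoot H3K9ac peak by 55 bp, with none of these marks listed for the gene. Peaks were tied to genes by clone and length alone, and the typed matches are less sure at these ranks. Whether the unlisted marks lay on the regions of these genes was not tested. Each mark was read in its own library from several plants, and shared bases do not place the marks on the same nucleosomes or in the same cells.

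**Figure D2:**
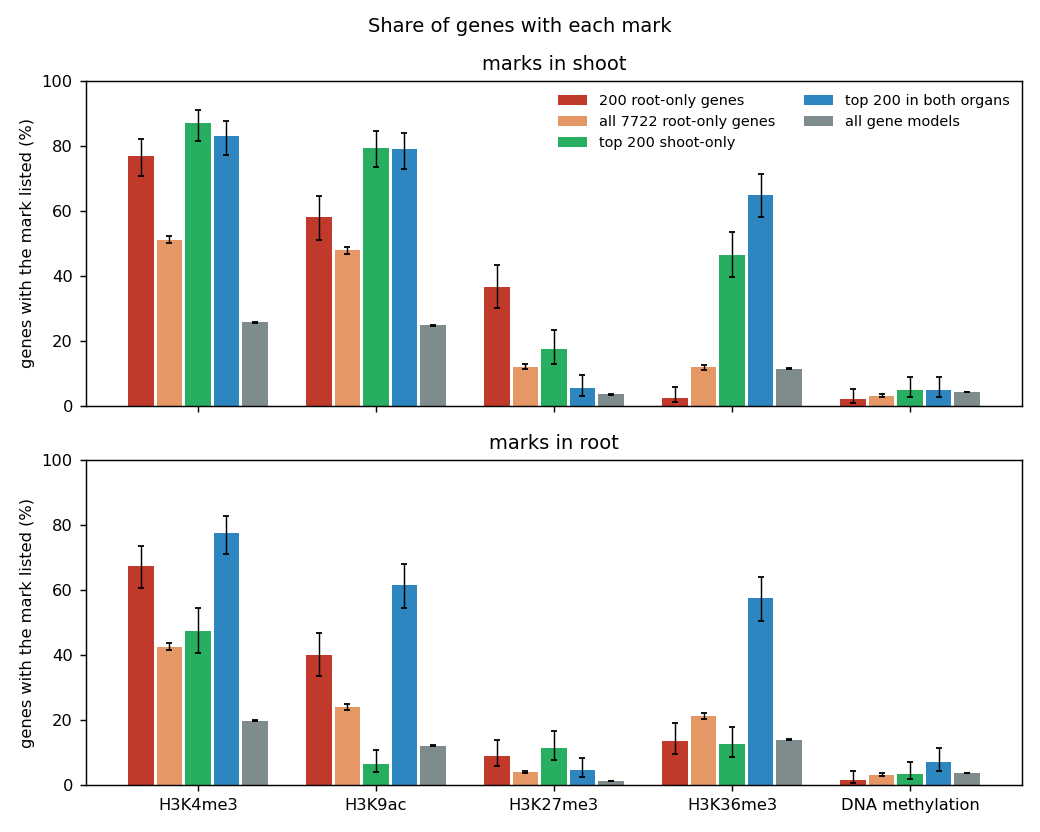
Percentage of genes with each mark listed, in shoot (upper panel) and root (lower panel), for the 200 root-only genes and 4 comparison groups; bars start at 0 and error bars are 95% Wilson intervals. Shoot H3K27me3 reached 36.5% in the 200 genes and at most 17.5% in the 4 groups shown. In the next 200 root-only genes, not shown, it was 25.0%. Shoot H3K36me3 was at 2.5% against 46.5% and 65.0% in the other top-200 groups shown.

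H3K4me3 was on most of the genes in both organs, the organ without listed mRNA included. It was listed on 154 of the 200 in shoot, or 77.0% (70.7 to 82.3%), against 25.7% of all gene models and 51.1% of all root-only genes. In root it was on 135, or 67.5% (60.7 to 73.6%), against 19.8% and 42.5%. Both organs listed it on 119 genes (18.9% of all gene models), shoot alone on 35 (6.73%), root alone on 16 (0.888%), and 30 genes had it in neither. The top 200 shoot-only genes had it on 87.0% in shoot and on 47.5% in root (40.7 to 54.4%), and the top 200 of both organs on 83.0% and 77.5%. The root share of the 200 genes was thus nearer to that of genes listed in both organs than to that of shoot-only genes.

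H3K4me3 was longer in root more often on these genes than on all gene models, and about as often as on the next 200 root-only genes. It was longer in root on 65 of the 119 genes marked in both organs, or 54.6%, whereas 26.1% of all 35346 gene models with it in both organs were longer in root. Among the next 200 root-only genes the share was 54.0% (68 of 126), and among all root-only genes 37.3%. The median length was 1209 bp in shoot against 1316 bp in root, and the log2 ratio of root over shoot length had a median of 0.04 and a range of -1.34 to 1.38. On the top 200 shoot-only genes it was longer in root on 6 of 90, and the medians were 1453 and 911 bp, shoot first. On the top 200 of both organs it was longer in root on 48 of 150. Scaled depth was higher in root on 40 of the 119, or 33.6%, against 4.63% of the 35346 gene models with the mark in both organs. Among the next 200 root-only genes this share was 31.7% (40 of 126), and among all root-only genes 15.8%. Depth depends on the authors' scaling of each library, while length does not carry that factor but still depends on where peaks were called. The first ranks did not follow the set, since the length at rank 1 was 1037 bp in shoot against 409 bp in root, and ranks 2 and 3 had 563 and 846 bp in shoot and none listed in root.

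**Figure D3:**
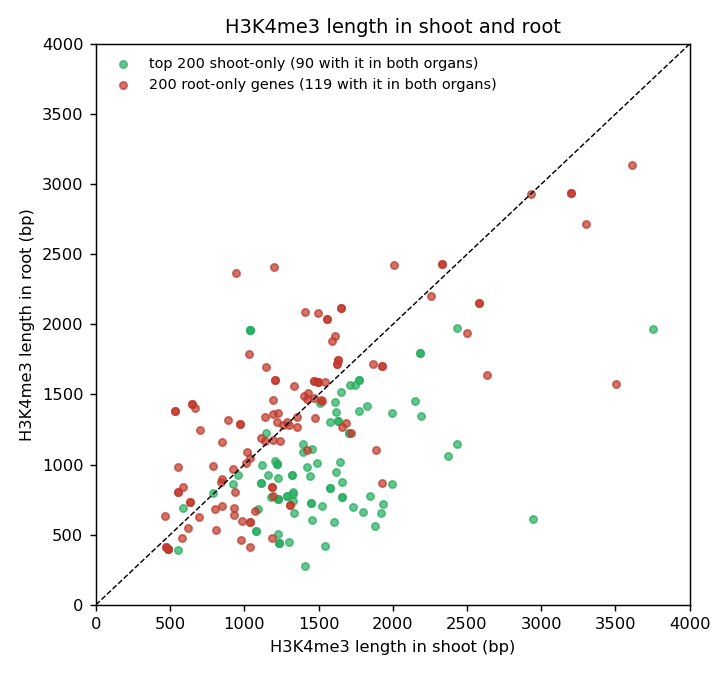
Length of H3K4me3 in shoot and root (bp) for the genes with it in both organs, 119 of the 200 root-only genes (red) and 90 of the top 200 shoot-only genes (green); the dashed line marks equal lengths. Of the red points 65 lie above the line, and of the green points 6.

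H3K9ac was listed less often in root than in shoot. It was on 116 of the 200 genes in shoot, or 58.0% (51.1 to 64.6%), against 24.8% of all gene models, and on 80 in root, or 40.0% (33.5 to 46.9%), against 12.1%. Of all root-only genes, 47.9% had H3K9ac in shoot and 23.9% in root. The next 200 root-only genes had it on 64.0% in shoot and 38.5% in root. Shoot alone had it on 51 genes (13.1% of all gene models), both organs on 65 (11.7%) and root alone on 15 (0.414%). The top 200 shoot-only genes had root H3K9ac in 6.5% (3.84 to 10.8%), and the top 200 of both organs in 61.5% (54.6 to 68.0%). On the genes marked in both organs, H3K9ac was longer in root in 1 of 65 cases, against 0.545% of the 21827 gene models with it in both organs, with a shoot median of 1594 bp against 730 bp in root. On genes marked in both organs the acetylation thus covered more bases in the organ without listed mRNA, and it was longer in shoot on 21708 of those 21827 models too. By rank, root H3K9ac was on 13, 22, 26 and 19 genes in the 4 classes of 50. Of the first 10 ranks, rank 6 alone had it in root, over 433 bp.

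H3K36me3 was listed on a smaller share of the 200 genes than of all gene models in shoot, and on a similar share in root. In shoot it was on 5 of the 200, or 2.5% (1.07 to 5.72%), against 11.5% of all gene models and 11.8% of all root-only genes. In root, where the mRNA was, it was on 27, or 13.5% (9.45 to 18.9%), against 14.0% and 21.1%. Ranked by mean depth per covered base, the first 200 root-only genes had it in root on 8.5%. The top 200 of both organs carried it on 65.0% in shoot and 57.5% in root, and the top 200 shoot-only genes on 46.5% in shoot (39.7 to 53.4%), their own organ. Those groups also have higher mRNA levels: their lowest values were 4776 root reads and 1827 shoot reads, against 529 root reads here. Groups with a lower median of mRNA also carried the mark more often. All 44187 genes with root mRNA had a median of 140 reads and had H3K36me3 on 40.0% in root and 33.3% in shoot. The next 200 root-only genes had a median of 385 reads and shares of 20.0% and 6.0%. The part of level in these differences was not tested. Among genes with both H3K4me3 and H3K9ac in root, 17 of 77 also had H3K36me3, or 22.1%, against 71.8% of all such gene models. In shoot it was 5 of 107, or 4.67%, against 42.3%.

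Where H3K36me3 was listed on the 200 genes, it was mostly in root alone. Root alone had it on 23 genes (5.56% of all gene models), shoot alone on 1 (3.05%) and both organs on 4 (8.42%). Root alone came to 11.5% of the 200 genes, 11.8% of all root-only genes and 14.5% of the next 200, so this state was not particular to them. Of all root-only genes, 912 had the mark in root alone, 717 in both organs and 195 in shoot alone. The 200 genes thus differed mainly in how rarely both organs listed it. Rank 14, the first gene with it in root, carried 683 bp there and had none in shoot. Rank 56, the first with it in shoot, carried 703 bp in shoot and 413 bp in root. The 5 genes with it in shoot had root mRNA between 680 and 1393 reads, so no gene of the first 50 ranks was among them.

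DNA methylation was listed on few of the genes, and on none of them in both organs, a state of 0.926% of all gene models. In shoot it was on 4 of the 200, or 2.0% (0.780 to 5.03%), against 4.19% of all gene models and 3.16% of root-only genes. This was 0.5% with the genes ranked by mean depth and 0% with a marked length of at least 200 bp required. In root it was on 3, or 1.5% (0.511 to 4.32%), against 3.68% and 3.11%. The shares of all gene models lie within both intervals. The genes methylated in root were ranks 6, 18 and 21, with regions of 369, 204 and 337 bp. The first gene methylated in shoot was rank 7, with 177 bp.

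Taken by combination, the commonest state in shoot was H3K4me3 with H3K9ac, on 59 genes (10.9% of all gene models), the first of them rank 2. H3K4me3 with H3K9ac and H3K27me3 followed on 39 genes (1.49%), led by rank 1. A further 26 genes had H3K4me3 alone (2.50%), led by rank 3, and 21 had H3K4me3 with H3K27me3 (0.790%), led by rank 34. H3K27me3 alone was on 10 (0.853%), led by rank 4, H3K9ac alone on 8 (2.38%), led by rank 16, and no mark on 27 (65.6%), led by rank 8. In root, no mark was on 58 genes (72.3%), H3K4me3 with H3K9ac on 52 (2.77%), led by rank 20, and H3K4me3 alone on 41 (5.57%), led by rank 1. H3K4me3, H3K9ac and H3K36me3 together were on 16 in root (7.30%), led by rank 22, and on 4 in shoot (8.90%). H3K4me3 with H3K36me3 was on 9 in root (3.10%). With H3K27me3, H3K4me3 and H3K9ac stood on 8 genes in root (0.144%) and H3K4me3 alone on 7 (0.496%).

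With shoot and root set side by side, 28 genes had H3K4me3 with H3K9ac in both organs. Another 13 had H3K4me3, H3K9ac and H3K27me3 in shoot and H3K4me3 with H3K9ac in root. On these, H3K27me3 was the only mark listed in shoot and not in root. From the same shoot state, 9 genes had H3K4me3 alone in root, 6 had all 3 marks, and 4 had none. These changes of state were not counted over all gene models. The loss of H3K27me3 was not particular to these genes. Only 25.3% of all 6622 gene models with it in shoot kept it in root. A group of 40 genes had marks in shoot and none in root (10.4% of all gene models), among them ranks 2, 3, 4 and 5, with a median of 1138 root reads. The reverse, marks in root only, was found on 9 genes (3.81%), the first at rank 52. Another 18 genes had no mark in either organ (61.8% of all gene models and 32.6% of root-only genes). The first of these was rank 8, with 6721 root reads over 576 bases, and the median of the 18 was 902.5 reads. High root mRNA thus occurred without any listed mark in root on 58 genes.

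**Figure D4:**
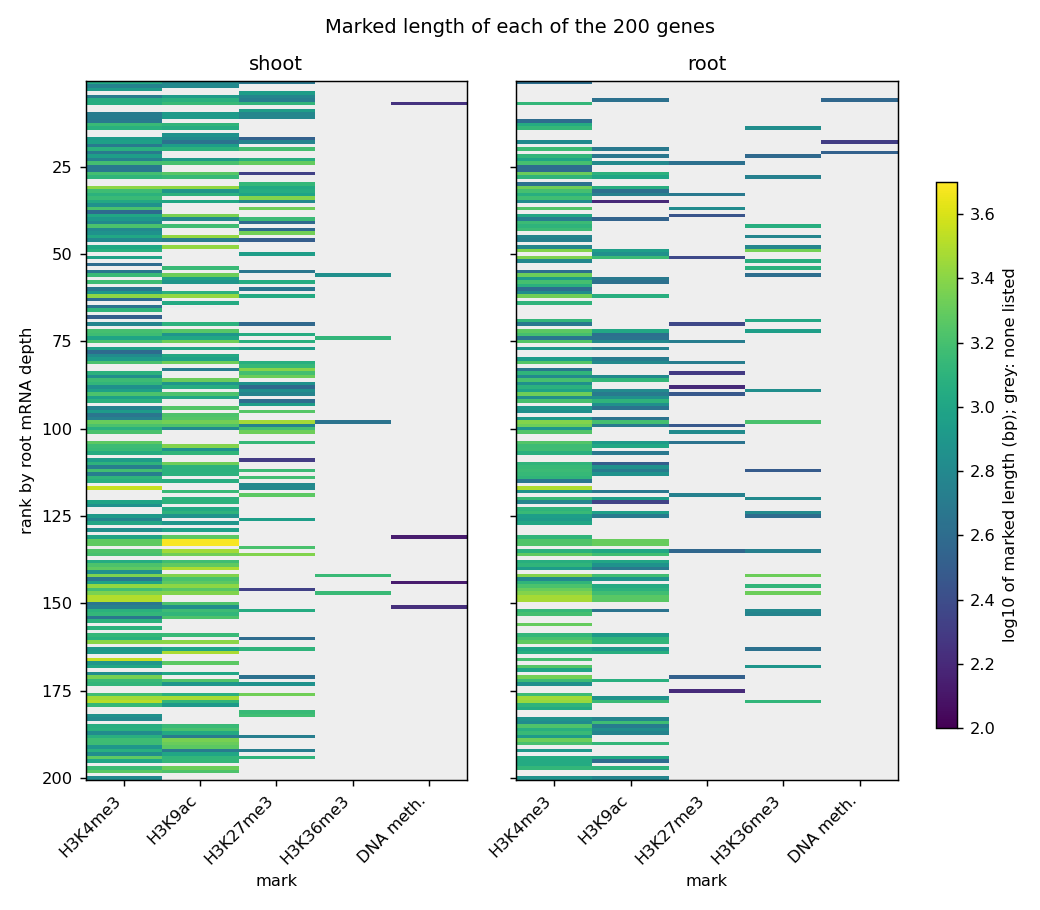
Marked length (log10 of bp, colour) of each of the 200 genes, by rank from top to bottom, for the 5 marks in shoot (left) and root (right); grey means none listed. H3K27me3 fills 73 lines in shoot and 18 in root, and root H3K9ac is sparse in the first 50 ranks (13 genes).

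Some of the genes are not separate cases. Of the 182 with at least 1 mark, 72 had the same length and depth of all 5 marks in both organs as another of the 200, in 33 sets of which 27 had 2 genes and 6 had 3. A further count that includes gene models outside the 200 gave 98 of the 182. The share was 51.5% of all marked gene models and 55.2% of marked root-only genes. Repeated values were thus not particular to these genes. The 72 within the 200 were not set against a like count over all gene models. The sets of 3 were ranks 5, 10 and 11, ranks 12, 25 and 26, ranks 32, 58 and 73, ranks 36, 122 and 141, ranks 38, 63 and 78, and ranks 96, 150 and 154. Within a set, root reads differed by 1.00 to 3.73 times, with a median of 1.09. With 1 gene kept per set, 161 remained, and the others held 52143 reads. Outside the 200, 46 gene models shared a full set of values with a member. Of these, 44 had root mRNA and 18 had shoot mRNA, so that the same marked region could belong to a model listed in shoot and to a model listed at 0 there.

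Placement by typed model showed where such repeats lie. Of 16 pairs with identical marks that could be placed, 9 were overlapping models of the same contig, 6 of them on the same strand, and 7 lay on different clones. The model of rank 9 overlapped that of rank 4 over 1806 bp on the same strand, and rank 10 overlapped rank 5 in the same way, also over 1806 bp. Rank 11 lay on another clone, with 5283 reads over 1802 bases against 5285 reads over 1805 for rank 10. Reads of such copies or overlapping models cannot be assigned to a single gene from these tables, and the levels of repeated genes are uncertain.

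The first locus shows how far models can share a place while their listed marks differ. The models of ranks 1, 2 and 55 lay on the minus strand of a single contig. Their clone holds no other contig, so the positions of models and peaks on it were set side by side, on the assumption that both count from the same end. Rank 1 had 18 exons over 6407 bp, and overlapped rank 2 by 2266 bp and rank 55 by 2615 bp. A shoot H3K27me3 peak of 474 bp reached from 236 bases before the start of rank 1 to 237 bases after it. At the same start lay an H3K4me3 peak of shoot of 273 bp and an H3K4me3 peak of root of 364 bp. The far end, 5452 to 6222 bases downstream of that start, carried a second H3K4me3 peak and an H3K9ac peak in shoot. That stretch lies within the overlap with rank 2, and the tables list the same 634 bp of shoot H3K9ac for both genes. Rank 2, which does not reach the other end of the locus, is listed without H3K27me3.

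**Figure D5:**
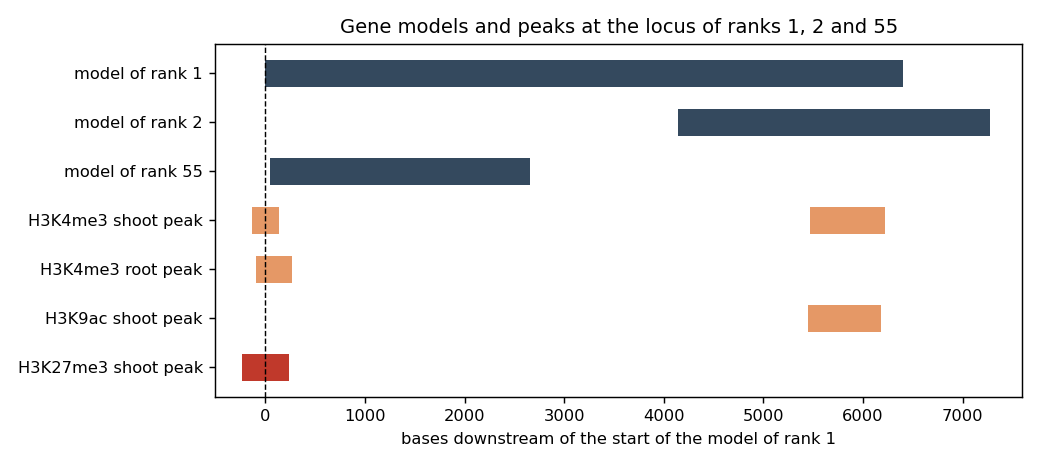
Gene models of ranks 1, 2 and 55 (dark bars, introns included) and the peaks listed around them (orange, H3K27me3 in red), by distance in bases downstream of the start of the rank 1 model. The H3K27me3 peak of shoot spans the start (-236 to 237), and the H3K9ac peak of shoot lies at 5452 to 6177, inside both the rank 1 and the rank 2 model.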

How the data were processed

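The authors deposited, for each organ, a gene table whose depth values are signal (summed base coverage), with marked or covered lengths beside them, and a peak list without scores per chromatin library. All mRNA depths were multiples of 35 and were divided by 35 to give reads, which sum to 21615685 in shoot and 21406798 in root. The authors scaled the mark signal of each library by 1 factor. Its basis, the aligner, the peak caller and the build were not found in the labels or file headers, so they count as not given in the sources used here. A mark counted as present where its listed length was above 0. Gene tables were joined by number with pandas 2.3.3, and typed models by covered length and summed coverage. Named were ranks 1 to 10, the first gene of each mark combination of 5 or more genes, the first with H3K27me3 in root, H3K36me3 in shoot or DNA methylation, and the largest repeated sets; ranks 18, 21, 52, 55, 85, 95 and 119 were added after their values were seen. The genes, comparison groups and alternatives were chosen with earlier results of these data known. The selection, repeat and pairing steps were tested on simulated data. With 1 library per assay and organ, no test was possible. Small RNA was not analysed here.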

Additional observations from a re-analysis of the deposited data

How the results depend on the processing

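No paired analysis was possible because each assay has 1 library per organ and no result comes from a test. Of 59 values computed with another choice, 47 lay inside the Wilson interval of the value in the report or, for counts, differed from it by at most 1.5 times. Ranking by mean depth per covered base shares 129 of the 200 genes and gave 60.5% for root H3K4me3, 32.0% for root H3K9ac, 8.5% for root H3K36me3, 0.5% for shoot DNA methylation and 1.61% of root mRNA. With the first 100 genes, shoot H3K27me3 was at 50%, the share of root mRNA was 1.44% and 30 genes repeated another's values. With 1 gene per set of identical marks the mRNA share was 1.51%, and with 1 per group joined by any identical mark value, an alternative added after the data were seen, it was 1.37%. Over root-only mRNA it was 41.2%. At a marked length of at least 200 bp, 0% kept DNA methylation in shoot. The shares of shoot H3K4me3, shoot H3K9ac, shoot H3K36me3, root H3K27me3 and root DNA methylation stayed within their intervals under each alternative tried. The depth of the chromatin libraries is unknown here, so an unlisted mark may be a region below the limit of its library.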

Other observations

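The genes of ranks 6, 7 and 18 share a covered length of 981 bp, held by more of the 200 genes than any other length and by 20 gene models in root. They were noticed after their values were seen. Their typed models had 1 exon of 981 bp each and lay on 3 different clones, and their mark values differed, so they are not repeats of a single model. Root reads were 7244, 6904 and 3915, with 5, 11 and 8 reads left over for shoot. All 3 carried H3K4me3, H3K9ac and H3K27me3 in shoot and had no H3K27me3 listed in root. They also made up 3 of the 7 genes with DNA methylation, in root on ranks 6 and 18 and in shoot on rank 7. Their relation to each other could not be examined without sequences.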
